A study of Mus musculus with 6 samples.

Results

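The nuclear genes for the subunits of respiratory complexes II, III and IV and of ATP synthase (complex V) were compared between WT and SIRPα KO lung ILC2s. They were taken from the deposited count table by symbol (Sdha to Sdhd, Cyc1, and symbols beginning with Uqcr, with Cox4 to Cox8 and a letter, or with Atp5), and 7 columns named as pseudogenes were left out. This gave 45 of the 17831 genes in the table, of which 4 belong to complex II, 9 to complex III, 15 to complex IV and 17 to complex V. The 6 libraries came from lung ILC2s of WT mice (labelled CB57BL/6; 3 libraries) and of mice with the allele SIRPalphatm1Ynliu/J (SIRPα KO; 3 libraries), aged 6 to 8 weeks per the study's methods. All mice received IL-33 intranasally for 3 days, the cells were sorted on day 4 as lineage-negative and positive for CD45, CD127 and ST2, and both groups were then cultured with IL-2 and IL-7 (18 h in one place of the study and 24 h in another). The knockout is carried in the germ line, so it is not limited to ILC2s, and the number of mice behind a library is not given in the sources used here. RNA input was 10 pg per library. The comparison asks whether the transcripts of the respiratory machinery downstream of complex I differed with loss of SIRPα, an inhibitory receptor whose ligand is CD47.

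Complex II (succinate dehydrogenase) passes electrons from succinate to ubiquinone and is also an enzyme of the TCA cycle. Complex III moves them from ubiquinol to cytochrome c, complex IV hands them to oxygen, and complex V uses the proton gradient built by the chain to make ATP. A few large subunits of each complex hold the catalytic sites or form its core, while many small accessory subunits surround them, and some subunits of complexes III to V are made from mitochondrial DNA. ILC2s are innate lymphocytes that secrete type 2 cytokines and draw on mitochondrial respiration when activated.

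Before the subunits, the libraries themselves are described. The libraries held 13980491 to 19051504 reads assigned to genes. Levels are given as CPM (the reads of a gene scaled to a library of fixed size) after TMM scaling, which corrects for differences in library composition. In the labels, WT replicates 1 and 2 are coded 37 and 37V1 and SIRPα KO replicates 2 and 3 are coded 44 and 44V1, while the deposited design text speaks of duplicates. The 3 libraries per group were kept as labelled, and p-values measure the spread between these libraries, which may be technical. WT replicate 3 stood apart. It was the highest WT library for 42 of the 45 subunit genes (and for 38.5% of all genes tested), and its median difference from the mean of WT replicates 1 and 2 was 0.54 on the log2 scale over the subunits, against -0.02 over all tested genes. The coefficient of variation between replicates estimated by edgeR was 38% in WT, 27.9% in WT without replicate 3 and 15.2% in SIRPα KO. Sirpa was counted at 8.57, 6.83 and 4.83 CPM in the WT replicates and at 3.07, 4.46 and 1.74 CPM in the SIRPα KO replicates, with a log2 fold change of -1.12 (adjusted p = 0.115 from the quasi-likelihood test of edgeR). ILC2 markers summed to 13361 to 14783 CPM in WT against 19858 to 20439 CPM in SIRPα KO. Of the 10 markers, 3 were called higher (5.94% of all genes tested) and Thy1 lower (log2 fold change -2.06, adjusted p = 0.0139 from edgeR). Most of the sum was Il5, with a mean of 9190 CPM in WT against 13000 CPM in SIRPα KO. Gata3, Rora and Areg overlapped between the groups, and the other ILC2 markers did not. The 6 B cell markers summed to 216 to 479 CPM in WT against 23.1 to 84.6 CPM in SIRPα KO, and 5 of them were called lower (5.81% of all genes tested). NK cell markers summed to 8.97 to 16.0 CPM against 1.02 to 3.66 CPM, and 2 of 3 were called lower. Macrophage markers summed to 43.5 to 127 CPM against 76.8 to 119 CPM. Of the 6 macrophage markers tested, Itgam alone was called, and it was higher in SIRPα KO. Its mean was 1.92 CPM in WT against 11.2 CPM in SIRPα KO (log2 fold change 2.55, adjusted p = 0.0454 from edgeR). For mast cells and basophils the sums were 7.07 to 20.8 CPM against 0.868 to 10.4 CPM, for T cells 1.64 to 4.72 CPM against 1.63 to 1.92 CPM, for granulocytes 0.173 to 0.284 CPM against 0.93 to 9.65 CPM, for epithelium and endothelium 60.6 to 85.9 CPM against 46.8 to 107 CPM, and for erythroid cells 6.26 to 9.6 CPM against 1.92 to 2.17 CPM. Epcam was called lower and Pecam1 higher (log2 fold changes -1.18 and 0.87, adjusted p = 0.0354 and 0.0421 from edgeR). Hba-a1 was called lower (log2 fold change -1.97, adjusted p = 0.017 from edgeR). Cd4 was at 0 in 5 of the 6 libraries, and C1qa in all WT libraries. The part of these markers in the results for the subunits was not tested, and fewer cells of a type cannot be told apart from less RNA per cell.

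Before correction for gene length, most subunit genes had lower CPM in SIRPα KO ILC2s, and a few large ones did not. Of the 45 genes, 41 had a negative log2 fold change and 4 a positive one, with a median of -0.66 against -0.0252 over all genes tested. The adjusted p was under 0.05 (the quasi-likelihood test of edgeR, adjusted over 13623 genes) for 21 of the 45, all lower in SIRPα KO, where 5.81% of all genes tested were called lower. None was called higher (5.94% of all genes), and at an unadjusted p under 0.05 there were 33 lower and 1 higher. The groups did not overlap, with SIRPα KO below WT, for 35 subunit genes (21.2% of all genes tested) and with SIRPα KO above WT for 3 (21.6% of all genes). Those 35 genes include 32 of the 41 subunits that are broadly expressed and 3 of the 4 scarce ones. Fold changes in these libraries followed gene length, as described after the complexes. With the coding length and GC correction given there, the median of the 45 genes was -0.19. In that fit 7 were called lower (3.7% of all genes) and 1 higher (3.22% of all genes).

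**Figure D1:**
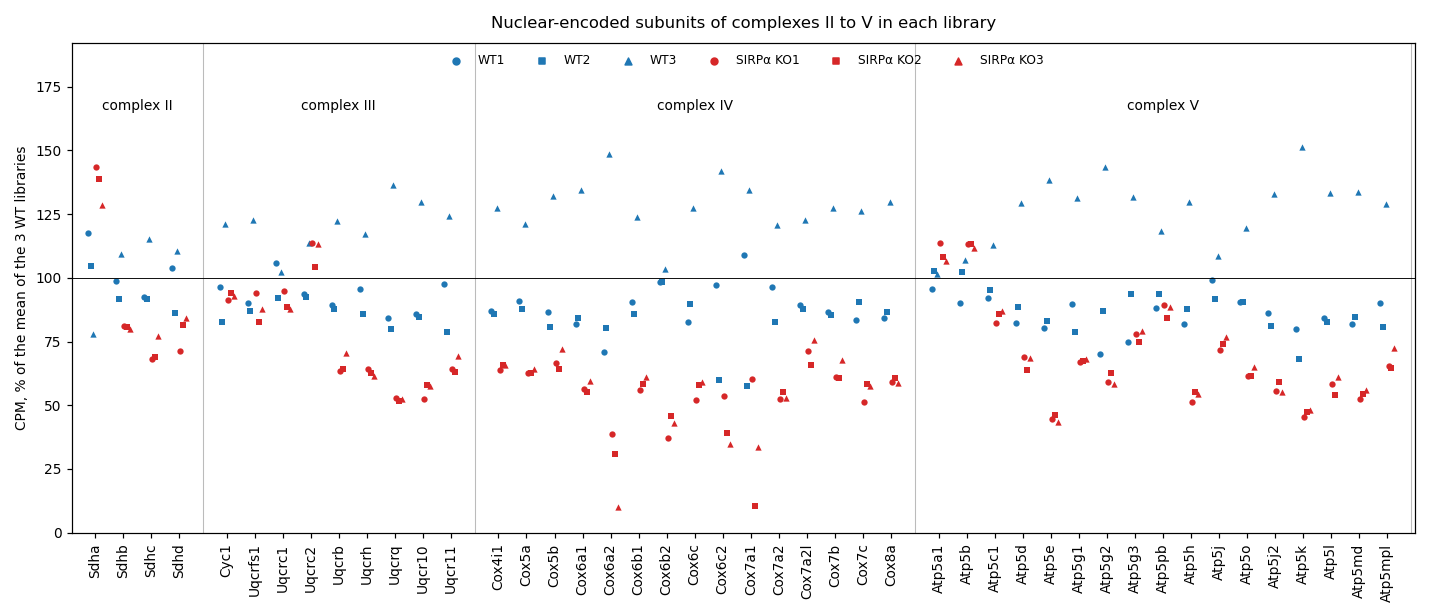
Level of each of the 45 subunit genes in each of the 6 libraries, as CPM in percent of the mean of the 3 WT libraries (vertical axis), grouped by complex (horizontal axis); blue marks are WT and red marks SIRPα KO, and the marker shape gives the replicate. The red marks lie below the blue ones for 35 genes and above them for Sdha, Atp5a1 and Atp5b, and WT replicate 3 (blue triangles) is the highest WT library for 42 genes.

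How firmly these calls stand depends on the libraries. Without WT replicate 3, 27 subunit genes were called lower (8.07% of all genes) and 2 higher, Sdha and Atp5b (10.4% of all genes), and all 21 genes called from the 6 libraries were among them. The medians moved toward 0 at the same time, from -0.66 to -0.42 over the 45 genes. The WT libraries left in that fit are coded 37 and 37V1 and may come from 1 sample. Their spread may then be technical, and the added calls may rest on it. The same holds without SIRPα KO replicate 1, which leaves the codes 44 and 44V1. Without SIRPα KO replicate 1, 2 or 3 no subunit gene was called by edgeR, with smallest adjusted p values of 0.107, 0.101 and 0.089. Few genes of any kind were called lower in those fits (0.0351%, 0.0353% and 0.0424% of all genes), and 27, 28 and 29 subunit genes were lower at an unadjusted p under 0.05. With libraries of one code summed, which leaves 2 samples against 2, none was called either (0.00686% of all genes called lower; 30 subunit genes at an unadjusted p under 0.05), and the median was -0.71. DESeq2 called 32 lower (12.0% of all genes) and 1 higher, Sdha (14.9% of all genes), and these include the 21 of edgeR.

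Promoters of the subunit genes were read from RefSeq (GRCm38.p6, from 250 bases before to 50 bases after the start), since nuclear respiratory genes are known to share sites for NRF1 and for GABP (also called NRF2). Of the 45 genes, 34 matched by symbol. The unmatched genes are Atp5a1, Atp5mpl, Cox4i1, Cox6a2, Cox6c, Cox6c2, Cyc1, Sdhc, Uqcrb, Uqcrc2 and Uqcrq. On either strand, the NRF1 motif (the letters in capitals in the Sdha promoter, with any base where they differ) was in 10 of the 34 promoters (29.4%) and in 5.19% of the promoters of all 27025 genes with a RefSeq promoter, and the GABP motif CCGGAAG in 13 (38.2%) against 9.93% of all. These 27025 genes were not limited to genes detected in the libraries. The ERR motif TCAAGGTCA was in Atp5g3 and Sdhd alone among the members (5.88%, against 0.466% of all), and the YY1 motif AAGATGGC in Atp5j, Atp5j2 and Atp5pb (8.82%, against 3.19% of all). The promoters of Sdha, whose log2 fold change was the highest of the 45, of Atp5e, the most negative among the called genes, and of Atp5k, which holds both motifs, are printed 5′ to 3′ with the NRF1 and GABP motifs in capitals.
Sdha (chr13:74350191-74350490, minus strand): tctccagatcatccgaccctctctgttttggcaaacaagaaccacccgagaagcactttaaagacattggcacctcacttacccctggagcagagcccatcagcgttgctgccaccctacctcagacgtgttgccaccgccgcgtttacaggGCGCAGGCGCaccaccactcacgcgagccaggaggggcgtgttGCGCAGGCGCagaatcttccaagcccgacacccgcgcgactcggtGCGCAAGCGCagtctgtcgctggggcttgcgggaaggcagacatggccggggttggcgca
Atp5e (chr2:174464052-174464351, minus strand): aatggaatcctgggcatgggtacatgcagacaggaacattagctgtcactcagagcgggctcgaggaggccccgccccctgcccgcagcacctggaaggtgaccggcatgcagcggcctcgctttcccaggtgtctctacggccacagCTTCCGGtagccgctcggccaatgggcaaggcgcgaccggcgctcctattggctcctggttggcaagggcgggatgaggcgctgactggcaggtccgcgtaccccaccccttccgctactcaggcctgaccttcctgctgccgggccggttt
Atp5k (chr5:108434350-108434649, minus strand): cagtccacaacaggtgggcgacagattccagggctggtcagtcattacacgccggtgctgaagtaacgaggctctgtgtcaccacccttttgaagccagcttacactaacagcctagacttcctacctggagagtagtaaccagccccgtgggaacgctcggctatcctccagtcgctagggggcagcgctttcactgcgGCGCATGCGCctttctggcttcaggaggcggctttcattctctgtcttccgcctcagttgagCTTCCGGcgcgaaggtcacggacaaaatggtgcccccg
Sdha holds the NRF1 motif at 3 places and no GABP motif, Atp5e has a single GABP motif, and Atp5k has 1 of each. Of the 13 genes with the GABP motif, 10 were called lower (5.81% of all genes tested). Their log2 fold changes had a median of -0.77 and their coding length a median of 267 bases. Of the 21 matched genes without it, 7 were, and the medians were -0.57 (log2 fold change) and 423 bases. For the NRF1 motif the counts were 4 of 10 genes with it (median -0.52, 480 bases) and 13 of 24 without it (median -0.66, 265.5 bases). The genes with the GABP motif were thus also the shorter ones, and whether the calls go with the motif or with the length was not tested. A match is a description of the letters and not of binding.

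In complex II the catalytic subunit had a positive log2 fold change and its partners negative ones, and none of the 4 passed the threshold. Sdha, the flavoprotein that oxidizes succinate (chromosome 13 from 74322254 to 74350280 of mm10), was counted at 361, 321 and 239 CPM in the WT replicates and at 440, 426 and 395 CPM in the SIRPα KO replicates. All SIRPα KO libraries were above all WT libraries, and WT replicate 3 was the lowest. Its log2 fold change was 0.45 (SE 0.156) with an adjusted p of 0.0937 from edgeR, and 0.31 with an adjusted p of 0.0363 without WT replicate 3. The WT libraries left in the latter fit may come from the same sample. Sdhb, the iron-sulfur subunit, had 376, 349 and 417 CPM in WT against 309, 308 and 304 CPM in SIRPα KO. Sdhc, a membrane anchor that takes part in ubiquinone binding, had 122, 121 and 152 CPM in WT against 90.1, 91.1 and 102 CPM in SIRPα KO. Sdhd, the other anchor, had 241, 200 and 256 CPM in WT against 165, 189 and 195 CPM in SIRPα KO. For each of these 3 genes the highest SIRPα KO library was below the lowest WT library. The log2 fold changes were -0.31, -0.48 and -0.34, and none passed the threshold (adjusted p = 0.0873, 0.0572 and 0.121 from edgeR). The summed level of the complex was 1052 ± 54.9 CPM in WT against 1005 ± 9.17 CPM in SIRPα KO (SD, n = 3 each), or 95.6% of WT, with overlapping groups.

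The contrast within complex II was also read as a ratio within each library, which does not depend on library scaling but is not corrected for gene length. The ratio of Sdha to Sdhb was -0.06, -0.12 and -0.8 on the log2 scale in WT and 0.51, 0.47 and 0.38 in SIRPα KO, replicates 1 to 3 in order. Relative to Sdhb, Sdha was 1.72-fold higher in SIRPα KO, relative to Sdhc 1.93-fold and relative to Sdhd 1.75-fold, and the groups stood apart in each case. The exact permutation test (two-sided) gave p = 0.1 for each of the 3 ratios, the smallest that 3 against 3 can give, and 0.15 after adjustment over the 9 ratios tested. Since WT replicate 3 had the lowest value of all 3 ratios, the difference was smaller without it (0.54 on the log2 scale against 0.78 for Sdha to Sdhb). It was 0.25 and 0.23 with the 2 corrections for length and GC content described after the complexes (the longest transcript first, then the coding length). For Sdha to Sdhc the corrected values were 0.99 and 0.37 in place of 0.95, and for Sdha to Sdhd 0.39 and 0.19 in place of 0.81.

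**Figure D2:**
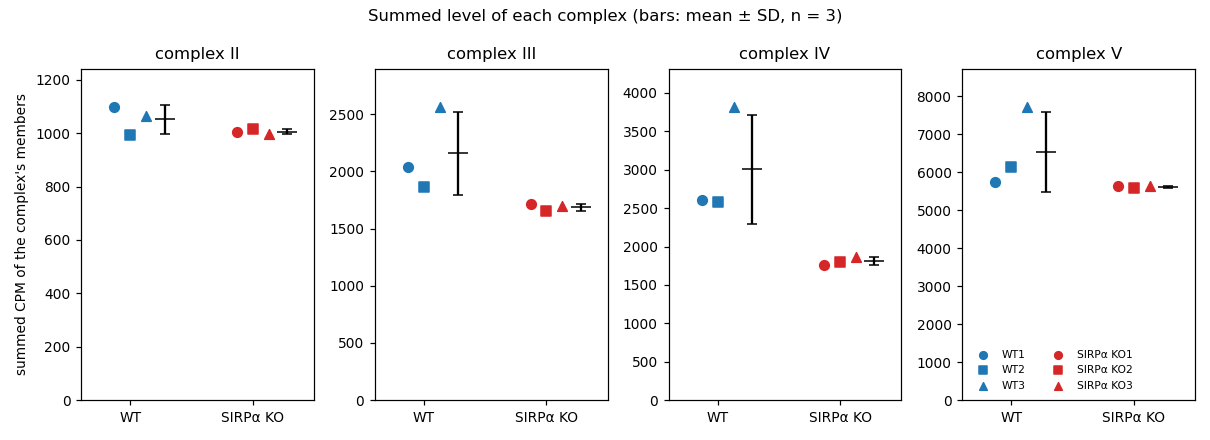
Summed CPM of the members of each complex (vertical axis, starting at 0) in each WT (blue) and SIRPα KO (red) library, with the mean ± SD of the 3 libraries of a group in black. Complex IV has the widest separation, with 1761 to 1864 CPM in SIRPα KO and 2578 to 3821 CPM in WT, and complex II the narrowest.

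In complex III the small accessory subunits were lower in SIRPα KO before correction for length, while the catalytic and core subunits overlapped between the groups. Of its 9 members, 8 had a negative log2 fold change and 4 were called lower (adjusted p under 0.05; 5.81% of all genes tested). The median log2 fold change of the complex was -0.60. The called genes were Uqcrq, Uqcr10, Uqcrh and Uqcrb, all small subunits without a redox centre. Uqcrq had 227, 216 and 368 CPM in WT against 143, 139 and 142 CPM in SIRPα KO (log2 fold change -0.93, SE 0.204, adjusted p = 0.0300 from edgeR). Uqcr10 had 149, 147 and 226 CPM in WT against 91.5, 101 and 100 CPM in SIRPα KO (log2 fold change -0.83). In both, WT replicate 3 was far above the other WT libraries, and every SIRPα KO library was below all of them. Uqcrh, the hinge protein between cytochrome c1 and cytochrome c, had 135, 121 and 165 CPM in WT against 90.6, 88.2 and 86.6 CPM in SIRPα KO (log2 fold change -0.67). Uqcrb had 222, 218 and 303 CPM in WT against 157, 159 and 175 CPM in SIRPα KO (log2 fold change -0.60). The adjusted p values of these 3 genes were 0.0300, 0.0281 and 0.0426 from edgeR. The remaining small subunit, Uqcr11, was likewise separated between the groups (log2 fold change -0.61, adjusted p = 0.0549 from edgeR). With the coding length correction none of the small subunits was called. The log2 fold changes were then -0.35 for Uqcrq, -0.07 for Uqcr10, -0.26 for Uqcrh, -0.43 for Uqcrb and 0.42 for Uqcr11. With the longest transcript as the length, Uqcrq alone among them was called lower (log2 fold change -0.67, adjusted p = 0.0319 from edgeR).

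None of the larger subunits of complex III passed the threshold. Uqcrc2, a core protein, had 178, 176 and 216 CPM in WT against 216, 198 and 215 CPM in SIRPα KO (log2 fold change 0.14, SE 0.120, adjusted p = 0.445 from edgeR). Cyc1, the cytochrome c1 that holds a haem, had 268, 230 and 337 CPM in WT against 254, 261 and 258 CPM in SIRPα KO (log2 fold change -0.11, adjusted p = 0.628 from edgeR). In both genes the groups overlapped. The Rieske iron-sulfur protein Uqcrfs1 (-0.18) and the core protein Uqcrc1 (-0.14) overlapped between the groups as well. The ratio of Uqcrc2 to Uqcrc1 was 1.22-fold higher in SIRPα KO, with the groups apart (exact permutation p = 0.1, adjusted 0.15), a log2 difference of 0.29 that was 0.19 and -0.02 with the 2 corrections. The sum over complex III was 2157 ± 365 CPM in WT against 1687 ± 32.2 CPM in SIRPα KO (SD, n = 3 each), or 78.2% of WT (86.4% of WT replicates 1 and 2).

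All 15 members of complex IV had negative log2 fold changes, with a median of -0.82. Of these, 9 were called lower (5.81% of all genes tested): Cox4i1, Cox5a, Cox6a1, Cox6b1, Cox6c, Cox7a2, Cox7b, Cox7c and Cox8a. Cox7a2, the broadly expressed isoform of subunit VIIa, had 247, 212 and 309 CPM in WT against 134, 141 and 135 CPM in SIRPα KO. The SIRPα KO libraries were close to each other and far below the lowest WT library, and the log2 fold change was -0.91 (SE 0.149, adjusted p = 0.0158 from edgeR, the smallest of the 45 genes). Cox6b1, on the side of the intermembrane space where cytochrome c docks, had 327, 310 and 447 CPM in WT against 202, 211 and 221 CPM in SIRPα KO (log2 fold change -0.77). Cox7c, a single-span membrane subunit, had 184, 200 and 279 CPM in WT against 113, 129 and 127 CPM in SIRPα KO (log2 fold change -0.84). Cox6c had 191, 207 and 294 CPM in WT against 120, 134 and 137 CPM in SIRPα KO (log2 fold change -0.82). For these 3 genes the adjusted p was 0.0241, 0.0257 and 0.0281 from edgeR, and the groups were apart. The 2 highest log2 fold changes in the complex still belonged to genes with SIRPα KO below WT in all libraries. Cox7a2l, a factor of respiratory supercomplexes related to subunit VIIa, had 59.3, 58.3 and 81.5 CPM in WT against 47.3, 43.8 and 50.1 CPM in SIRPα KO (log2 fold change -0.50, adjusted p = 0.0942 from edgeR). Cox5b, which binds zinc, had 210, 195 and 320 CPM in WT against 161, 155 and 174 CPM in SIRPα KO (log2 fold change -0.56, adjusted p = 0.0912 from edgeR). The ratio of Cox4i1 to Cox5b overlapped between the groups, with 0.83, 0.93 and 0.78 on the log2 scale in WT and 0.77, 0.87 and 0.7 in SIRPα KO, and its log2 difference of -0.06 was 0.23 and 0.22 with the 2 corrections. In the same order, the corrected log2 fold changes were -0.28 and -0.28 for Cox7a2 and -0.14 and -0.19 for Cox6b1, none of them called. Cox7c (-0.48 and -0.56) was called with both, and Cox6c (-1.01 and -0.36) with the longest transcript alone. Of the 9 genes, only Cox5a and Cox7c were called with the coding length.

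Several subunits of complex IV have isoforms that differ between tissues, and in these cells the broadly expressed form was the main one in both groups. Cox6a1 had 336, 347 and 552 CPM in WT against 231, 227 and 244 CPM in SIRPα KO (log2 fold change -0.82, adjusted p = 0.0368 from edgeR). Its heart and muscle partner Cox6a2 had 3.51, 3.98 and 7.35 CPM in WT against 1.92, 1.52 and 0.496 CPM in SIRPα KO, on 8 to 111 reads per library (log2 fold change -1.91, SE 0.572, adjusted p = 0.0672 from edgeR). Cox6b2, the testis form, had 2.7, 2.7 and 2.85 CPM in WT against 1.02, 1.26 and 1.18 CPM in SIRPα KO. Both minor forms were thus low and still separated between the groups. Cox7a1, the heart and muscle form of subunit VIIa, had 1.61, 0.853 and 1.99 CPM in WT against 0.895, 0.157 and 0.496 CPM in SIRPα KO, on 3 to 30 reads, with overlapping groups. Cox6c2, which GENCODE M21 annotates as a processed pseudogene of Cox6c, had 1.04, 0.64 and 1.52 CPM in WT against 0.575, 0.42 and 0.372 CPM in SIRPα KO, and its reads could belong to the near-identical Cox6c. The level needed by the filter on low counts (0.627 CPM) was reached in all WT libraries by these 4 genes but in only 2, 1 and 0 SIRPα KO libraries by Cox6a2, Cox7a1 and Cox6c2, so these 3 passed through WT, where they are higher. Over the other 11 members of complex IV the median log2 fold change was -0.75. Cox4i1 had 375, 371 and 551 CPM in WT against 276, 285 and 284 CPM in SIRPα KO, Cox7b had 196, 193 and 288 CPM and 138, 137 and 153 CPM, and Cox8a had 223, 229 and 344 CPM and 157, 161 and 156 CPM (log2 fold changes -0.62, -0.66 and -0.75). Other isoforms of these 3 subunits were not analysed here. The sum over complex IV was 3004 ± 708 CPM in WT against 1810 ± 51.9 CPM in SIRPα KO (SD, n = 3 each), or 60.3% of WT. WT replicates 1 and 2 alone had 2612 and 2578 CPM, and SIRPα KO was at 69.7% of their mean.

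**Figure D3:**
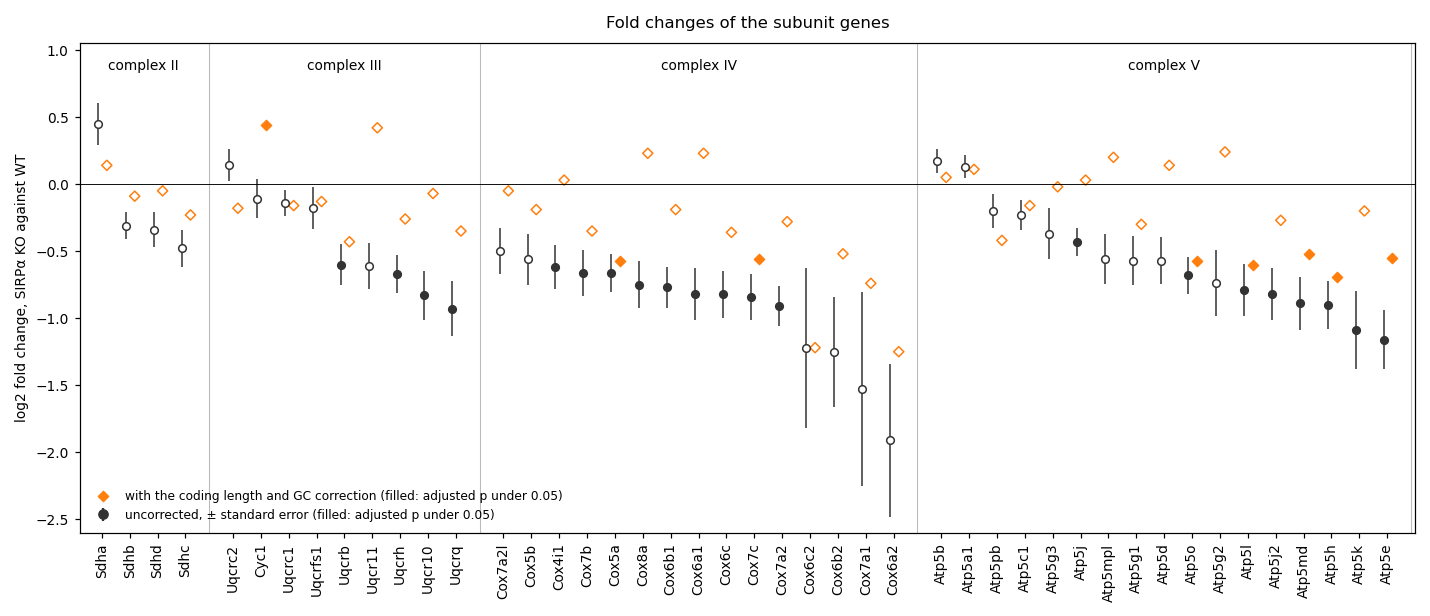
Log2 fold change of each of the 45 subunit genes in SIRPα KO against WT (vertical axis; negative is lower in SIRPα KO), grouped by complex and ordered within it (horizontal axis). Black circles with the standard error are the uncorrected values, orange diamonds those with the coding length and GC correction, and filled marks have an adjusted p under 0.05 from edgeR: 21 genes are filled in black, all below 0, and 8 in orange, 7 below 0 and Cyc1 above it.

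In complex V the alpha and beta subunits of the catalytic head had positive log2 fold changes that did not pass the threshold, and the calls were among the small subunits. Of its 17 members, 15 had a negative log2 fold change and 8 were called lower (5.81% of all genes tested). The median log2 fold change was -0.57. Atp5b, the catalytic beta subunit (chromosome 10 from 128083273 to 128090391), had 1640, 1860 and 1950 CPM in WT against 2060, 2060 and 2030 CPM in SIRPα KO. Atp5a1, the alpha subunit that alternates with it in the head, had 731, 788 and 778 CPM in WT against 872, 829 and 817 CPM in SIRPα KO. All SIRPα KO libraries were above all WT libraries in both genes, by a margin smaller than the range of WT. The log2 fold changes were 0.17 (SE 0.0898) and 0.13 (SE 0.0860), and neither passed the threshold (adjusted p = 0.219 and 0.319 from edgeR). The ratio of Atp5a1 to Atp5b was the same in the groups within the spread between replicates, at -1.24 ± 0.0805 in WT and -1.29 ± 0.0432 in SIRPα KO (log2, SD, n = 3 each; exact permutation p = 0.7), a log2 difference of -0.04 that was -0.13 and 0.06 with the 2 corrections. Per kilobase of principal transcript, Atp5b was the most abundant of the 45 genes, with 948 CPM per kilobase in WT and 1070 in SIRPα KO. Of these subunits, the study's text names Sdha, among the TCA cycle genes it reports as increased without SIRPα in these same libraries. Sdha, Uqcrc2, Atp5a1 and Atp5b were picked out here with earlier results of these data known, so their direction is not independent evidence.

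The rotor of ATP synthase is made of the gamma, delta and epsilon subunits and the ring of c subunits. Atp5e, the epsilon subunit (chromosome 2 from 174461072 to 174464105), had 109, 113 and 188 CPM in WT against 60.8, 62.9 and 59.1 CPM in SIRPα KO, or 44.7% of WT. Its log2 fold change was -1.16 (SE 0.218, adjusted p = 0.0212 from edgeR), and -0.85 without WT replicate 3. Relative to Atp5e, Atp5b was 2.44-fold higher in SIRPα KO than in WT, with log2 ratios of 3.91, 4.04 and 3.37 in WT and 5.07, 5.02 and 5.09 in SIRPα KO (exact permutation p = 0.1, adjusted 0.15). The log2 difference of 1.29 was 1.32 and 0.60 with the 2 corrections. Atp5d (-0.57, adjusted p = 0.0691) and Atp5c1 (-0.23, adjusted p = 0.18; both from edgeR) were lower in every SIRPα KO library without passing the threshold. Atp5g1, Atp5g2 and Atp5g3 encode the same mature c subunit with different import sequences, and none of them passed it. Atp5g1 had 294, 257 and 430 CPM in WT against 219, 220 and 223 CPM in SIRPα KO. Atp5g2 had 103, 128 and 211 CPM in WT against 87, 92.1 and 85.6 CPM in SIRPα KO. Atp5g3 had 378, 472 and 663 CPM in WT against 392, 378 and 398 CPM in SIRPα KO, the only one of these genes whose groups overlapped. The log2 fold changes were -0.57, -0.74 and -0.37 (adjusted p = 0.0823, 0.0874 and 0.214 from edgeR). The ratio of Atp5g2 to Atp5g3 was lower in every SIRPα KO library (0.792-fold, exact permutation p = 0.1, adjusted 0.15), and that of Atp5g1 to Atp5g3 overlapped (0.872-fold, exact permutation p = 0.4). With the 2 corrections the first changed direction, to 0.10 and 0.26 on the log2 scale from -0.34, and the other was -1.11 and -0.28 in place of -0.20. Levels of the c subunit genes were not ranked, because their annotated principal transcripts differ in length (4715, 731 and 723 bases).

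The stalk and membrane subunits of complex V held most of its calls. In the peripheral stalk, which keeps the head from turning, 3 of 4 members were called lower (5.81% of all genes tested). Atp5h had 230, 247 and 365 CPM in WT against 144, 155 and 153 CPM in SIRPα KO (log2 fold change -0.90, SE 0.180, adjusted p = 0.0252 from edgeR). Atp5o had 235, 235 and 311 CPM in WT against 160, 160 and 169 CPM in SIRPα KO (log2 fold change -0.68, adjusted p = 0.0257 from edgeR). WT replicates 1 and 2 were close to each other in both genes and above every SIRPα KO library. Atp5j was called lower too (log2 fold change -0.43, adjusted p = 0.0409 from edgeR), and Atp5pb, the b subunit, overlapped between the groups (-0.20). Among the small membrane subunits, several of which join ATP synthase dimers, 4 of 5 were called lower: Atp5j2, Atp5k, Atp5l and Atp5md. Atp5md had 167, 173 and 273 CPM in WT against 107, 111 and 114 CPM in SIRPα KO (log2 fold change -0.89, adjusted p = 0.0300 from edgeR). Atp5k (-1.09, adjusted p = 0.0497) was the one closest to the threshold, and Atp5mpl (-0.56, adjusted p = 0.0867; both from edgeR) did not pass it. With the coding length and GC correction, Atp5j (0.03), Atp5k (-0.20) and Atp5j2 (-0.27) were no longer called, while Atp5h, Atp5o, Atp5l and Atp5md were. With the longest transcript as the length, Atp5j2 was called lower (-0.73, adjusted p = 0.0425 from edgeR), and Atp5j and Atp5k were not. Summed over complex V, the level was 6535 ± 1050 CPM in WT against 5614 ± 30.0 CPM in SIRPα KO (SD, n = 3 each), or 85.9% of WT. The complex V sum of WT replicate 3 was 7721 CPM and those of WT replicates 1 and 2 were 5744 and 6141 CPM, of whose mean SIRPα KO was at 94.5%, and without WT replicate 3 the median log2 fold change of the complex was -0.36. Without Atp5a1 and Atp5b it was 3953 ± 903 CPM against 2725 ± 47.6 CPM, or 68.9% of WT (79.4% of WT replicates 1 and 2).

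**Figure D4:**
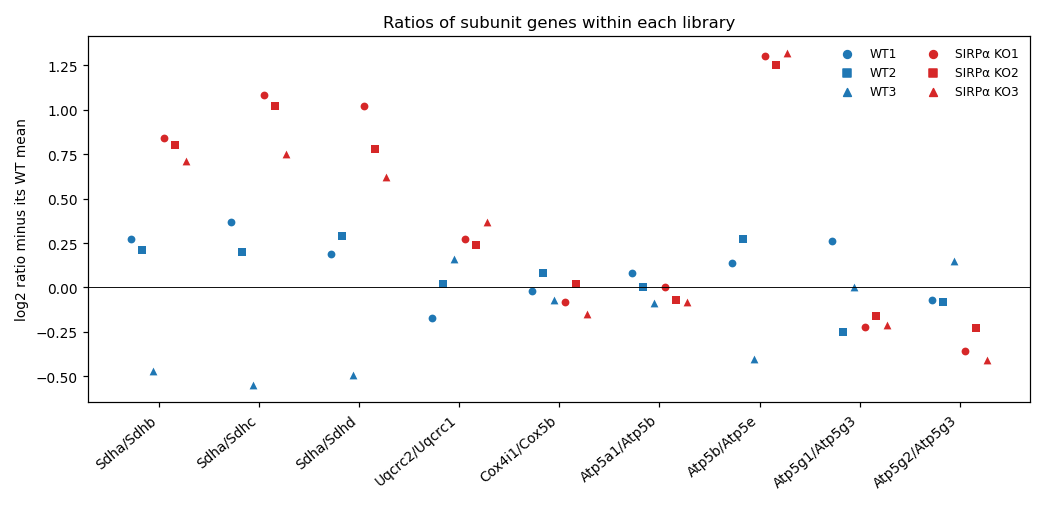
Log2 ratio of pairs of subunit genes in each library, minus the mean of the 3 WT libraries (vertical axis), for the 9 ratios tested (horizontal axis); blue marks are WT and red marks SIRPα KO. The groups are apart for the ratios of Sdha to its partners, Uqcrc2 to Uqcrc1, Atp5b to Atp5e and Atp5g2 to Atp5g3, and overlap for the other 3.

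The subunit genes are short, and in these libraries the fold change of a gene followed its length. Their median coding length was 334.5 bases, against 1350 bases for all genes tested. Across the 44 members with a known coding length, log2 fold change and log2 coding length had a Pearson r of 0.78 and a Spearman rho of 0.76, a description across genes that share the same 6 libraries. Among genes whose log2 CPM averaged 3 or more and with up to 300 coding bases, the log2 fold changes had a median of -0.82 over 15 subunit genes and of -0.63 over the 184 other genes. Of these subunit genes, 13 were called lower, as were 39.7% of the other genes, and 9 were below the lower quartile of the others. Over 300 and up to 600 bases the medians were -0.57 for 15 subunit genes and -0.38 for 1043 others, with 7 subunit genes and 21.2% of the others called lower. Over 600 and up to 1000 bases they were -0.22 (6 genes) and -0.16 (1696 others), and over 1000 and up to 2000 bases 0.14 (5 genes, with Sdha, Uqcrc2, Atp5a1 and Atp5b among them) and 0.1 (3366 others). WT replicate 3 followed length as well. Across the 44 members, its difference from the other WT libraries had a Pearson r of -0.66 with log2 coding length.

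**Figure D5:**
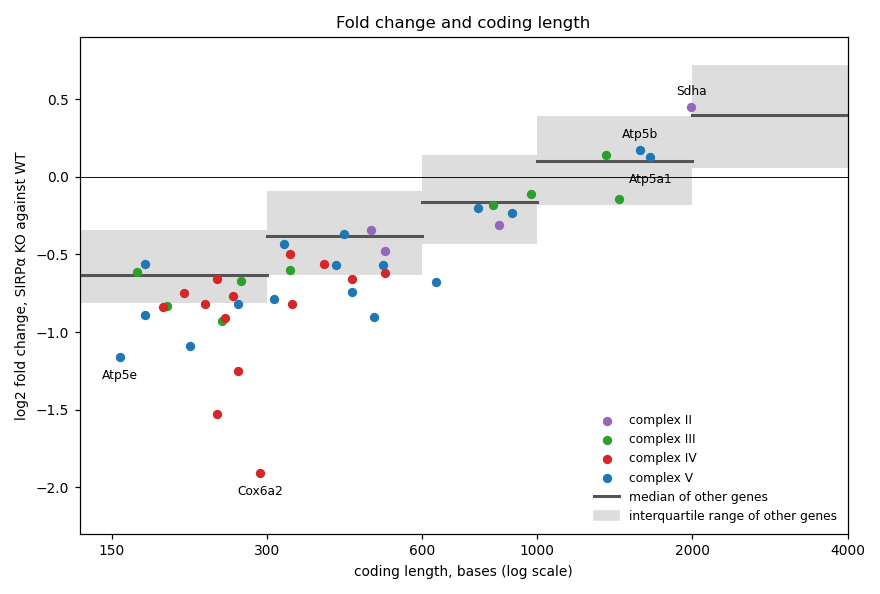
Log2 fold change of the subunit genes in SIRPα KO against WT (vertical axis) by coding length in bases (horizontal axis, log scale), coloured by complex. Grey lines and bands give the median and the interquartile range of the other genes whose log2 CPM averaged 3 or more, in 5 length classes, a level that Cox6a2, Cox6b2 and Cox7a1 do not reach; the median of other genes runs from -0.63 in the shortest class to 0.4 in the longest, and Sdha sits at the end of its class at 0.45.

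Fits that correct each library for length and GC content moved 34 of the 45 log2 fold changes closer to 0 with the longest annotated transcript as the length, and 40 with the coding length, and moved others away from it (Atp5l from -0.79 to -1.45 and Atp5md from -0.89 to -1.11 with the former, Atp5pb from -0.20 to -0.42 with both). With the longest annotated transcript as the length, 9 subunit genes were called lower (4.43% of all genes) and 2 higher (4.16% of all genes), Cyc1 (log2 fold change 0.39, adjusted p = 0.0396) and Atp5b (0.35, adjusted p = 0.0275; both from edgeR). The complex medians were then 0.04, -0.05, -0.39 and -0.23 for complexes II, III, IV and V. That length is over 3 times the principal transcript for Atp5l (6310 against 544 bases), Cox6c (3038 against 738) and Atp5e (1697 against 421). All of these genes were among those called lower in that fit. It is 3171 bases for Sdhc and 4715 bases for Atp5g1, whose coding sequences are short. A correction with the coding length of the principal transcript was therefore added after the data were seen. It left 7 called lower (3.7% of all genes) and 1 higher, Cyc1 (log2 fold change 0.44, adjusted p = 0.0301; 3.22% of all genes), with medians of -0.07, -0.16, -0.35 and -0.20. The 7 genes were Cox5a (-0.57), Cox7c (-0.56), Atp5e (-0.55), Atp5h (-0.69), Atp5l (-0.60), Atp5md (-0.52) and Atp5o (-0.57). All but Atp5o were also called with the other length. In the same fit Sdha had a log2 fold change of 0.14 (adjusted p = 0.336), Sdhb of -0.09, Sdhd of -0.05 and Sdhc of -0.23, and Cox4i1, Cox6a1 and Cox8a changed sign (0.03, 0.23 and 0.23). Complex IV had the most negative median of the complexes in both corrected fits, but over its 11 broadly expressed members the median was -0.19 with the coding length, next to -0.20 for complex V.

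The proteins that build these complexes, and the subunits made in mitochondria, were read from lists written for the comparison. Of 37 assembly factors of complexes II to V, 6 fell and none rose (over all genes tested, 5.81% were called lower and 5.94% higher): Uqcc2 of complex III (log2 fold change -0.94), Cox17 (-0.79), Cox20 (-1.03), Cmc2 (-0.97) and Pet100 (-1.06) of complex IV, and Atpif1 (-0.94), the inhibitor of ATP synthase that was listed with its factors. Their adjusted p values ran from 0.0189 for Atpif1 to 0.0463 for Pet100 (edgeR), and the median over the 37 genes was -0.37. By complex, 0 of 4 were called for complex II, 1 of 6 for III, 4 of 22 for IV and 1 of 5 for V. With the coding length and GC correction only Cox20 of the 37 was called, where 3.7% of all genes were called lower (log2 fold change -0.86, adjusted p = 0.0259 from edgeR). With the longest transcript as the length, Atpif1 (-0.4), Cox17 (-1.09), Cmc2 (-0.77) and Cox20 (-0.62) were still called lower. Their adjusted p values ran from 0.0311 to 0.0425 (edgeR), and 4.43% of all genes were called lower. Uqcc2 and Pet100 were not called in that fit. Cox20, which accompanies newly made subunit II of complex IV, had 31.1, 28.9 and 41.8 CPM in WT against 17.1, 16.1 and 16.7 CPM in SIRPα KO. Cycs, the cytochrome c that links complexes III and IV, had 844, 741 and 932 CPM in WT against 720, 689 and 736 CPM in SIRPα KO (log2 fold change -0.23, adjusted p = 0.18 from edgeR). Hccs, the enzyme that attaches haem to cytochromes c and c1, rose, with 77.2, 70.3 and 56.1 CPM in WT against 106, 110 and 110 CPM in SIRPα KO (log2 fold change 0.68, adjusted p = 0.0291 from edgeR; 0.49 and 0.0431 with the coding length and GC correction, and 0.39 and 0.0565, past the threshold no longer, with the longest transcript). The 6 mitochondrially encoded subunits of complexes III to V (mt-Cytb, mt-Co1, mt-Co2, mt-Co3, mt-Atp6 and mt-Atp8) overlapped between the groups. They summed to 3239 to 5698 CPM in WT against 4216 to 4880 CPM in SIRPα KO (log2 fold change, median -0.14), none called by edgeR and none at an unadjusted p under 0.05.

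Reads of some members could be shared with near-identical copies or overlapping genes, and how such reads were counted is not stated. By BLAST at 95% identity over at least 50% of the transcript, copies in the table were found for Atp5c1, Atp5g1, Atp5g2, Atp5h, Atp5k, Atp5l, Atp5o, Uqcrb and Cox6c2. For Atp5l, 6 copies held at most 274 reads per library together, beside at least 1625 reads on the gene itself. For Atp5h the copies had at most 177 reads beside at least 2258, for Uqcrb at most 320 beside at least 2464, and for Atp5o, where the overlapping Donson is counted among them, at most 804 beside at least 2506. These values are therefore less certain than those of the other members. The 41 broadly expressed members had 494 to 39196 reads per library.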

How the data were processed

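The data are bulk RNAseq libraries of cultured lung ILC2s, 3 from WT and 3 from SIRPα KO mice. The authors processed reads in Partek, aligned them with STAR to mm10 with GENCODE M21, and deposited estimated counts per gene. The submitters' notes give Partek 10.0 and STAR 2.7.8, and the study's methods other versions. The counting of multi-mapping reads and the use of strand are not stated. The unit was recorded singly for 554 gene columns and is the same for the other 17277.

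Counts were rounded to whole numbers, filtered with filterByExpr (10 reads in a library of median size, 15 in total), scaled (TMM) and tested with edgeR 4.0.16 (quasi-likelihood, genotype alone; R 4.3.3), adjusted over 13623 genes, with a threshold of 0.05. All 45 members passed. The standard error came from the F statistic. Ratios used log2(CPM + 0.5) and an exact permutation test. The corrections fitted splines with 5 degrees of freedom for length and GC content to each library over 8839 genes (8549 with coding length, which is known for 83.5% of tested genes, the others staying uncorrected). Members and lists were chosen with earlier results of these data known. Values in every library are given for complex II, the 4 members of each other complex with the smallest p and the 2 with the highest log2 fold change, the c subunit genes, isoform partners, and Sdha, Uqcrc2, Atp5a1 and Atp5b, and a few others were named after their values were seen. BLAST 2.17.0, DESeq2 1.42.0 and matplotlib 3.10.9 were also used. Procedures were tested on simulated data with the same spread between replicates in both groups. The unequal spread of WT and SIRPα KO seen here was not simulated. Same-numbered libraries of the groups did not deviate together (correlations of -0.042, 0.052 and 0.007), so no pairing was used.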

Additional observations from a re-analysis of the deposited data

How the results depend on the processing

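The 21 subunit genes called lower became 32 with DESeq2, 9 with the length and GC correction, 7 with the coding length and GC correction (8 without WT replicate 3), 1 with the replicate block and the length and GC correction together, and 0 with libraries of one code summed. No gene was called higher from the 6 libraries, against 1 with DESeq2, 2 with the length and GC correction and 1 with the coding length and GC correction (1 also without WT replicate 3). Leaving out each library in turn gave 0 to 27 genes lower and 0 to 2 higher. The complex medians then ran from -0.41 to -0.24 (II), -0.68 to -0.42 (III), -0.93 to -0.58 (IV) and -0.72 to -0.36 (V). With the length and GC correction the medians of complexes II to V were 0.04, -0.05, -0.39 and -0.23, and 0.04, -0.05, -0.39 and -0.22 with the replicate block as well. They were -0.07, -0.16, -0.35 and -0.20 with the coding length and GC correction, and -0.05, -0.06, -0.29 and -0.07 without WT replicate 3 in addition. The replicate block alone left 18 genes lower. With upper quartile factors the median over all genes was -0.125 and 23 were lower, and 15 were lower without the filter on low counts.

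Single genes changed sign as follows, and the cause was not tested. With the length and GC correction, the log2 fold changes were 0.11 for Sdhb, 0.39 for Cyc1, 0.07 for Uqcrfs1, 0.28 for Uqcr11 (0.29 with the replicate block), 0.14 for Cox4i1, 0.18 for Cox6a1 (0.19 with the block), 0.15 for Cox8a, 0.21 for Atp5g2 (0.23 with the block), 0.11 for Atp5g3, 0.02 for Atp5j and 0.16 for Atp5mpl, and the others did not move with the block. With the coding length and GC correction they were 0.44 for Cyc1, -0.18 for Uqcrc2, 0.42 for Uqcr11, 0.03 for Cox4i1, 0.23 for Cox6a1, 0.23 for Cox8a, 0.14 for Atp5d, 0.24 for Atp5g2, 0.03 for Atp5j and 0.20 for Atp5mpl. Without WT replicate 3 as well, they were 0.49 for Cyc1, 0.04 for Uqcrfs1, 0.33 for Uqcr11, 0.08 for Cox4i1, 0.21 for Cox6a1, 0.19 for Cox8a, 0.18 for Atp5d, 0.29 for Atp5g2, 0.12 for Atp5g3 and 0.21 for Atp5mpl. Leaving out each library in turn, Cyc1 ran from -0.23 to 0.06 and Uqcrfs1 from -0.27 to 0.0028, both highest without WT replicate 3. With log2(CPM + 1) or without any one library, no ratio changed direction or moved by more than 1 SD. With the length and GC correction the log2 ratios were 0.25 (Sdha to Sdhb), 0.39 (Sdha to Sdhd), 0.23 (Cox4i1 to Cox5b, reversed), -0.13 (Atp5a1 to Atp5b), -1.11 (Atp5g1 to Atp5g3) and 0.10 (Atp5g2 to Atp5g3, reversed). With the coding length and GC correction they were 0.23, 0.37 and 0.19 (Sdha to Sdhb, Sdhc and Sdhd), -0.02 (Uqcrc2 to Uqcrc1, reversed), 0.22 (Cox4i1 to Cox5b, reversed), 0.06 (Atp5a1 to Atp5b, reversed), 0.60 (Atp5b to Atp5e) and 0.26 (Atp5g2 to Atp5g3, reversed). Both sets of corrected ratios were added after the data were seen, while the length and GC correction of the fits themselves was planned. The cause was not tested. Depth limits only Cox6a2, Cox6b2, Cox6c2 and Cox7a1, with 3 to 111 reads per library.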

Other observations

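Among the assembly factors, Coa5 of complex IV, chosen here after its values were seen, went the other way. It had 100, 118 and 49.5 CPM in the WT replicates and 170, 157 and 164 CPM in the SIRPα KO replicates, a log2 fold change of 0.88 (adjusted p = 0.0797 from the quasi-likelihood test of edgeR). WT replicate 3 was the lowest library, and without it the log2 fold change was 0.59 (adjusted p = 0.0099 from edgeR). The WT libraries left in that fit may come from the same sample. With the coding length and GC correction over all libraries the log2 fold change of Coa5 was 1.23 (adjusted p = 0.0665 from edgeR). Cox15, which works in the synthesis of haem a, was also above WT in every SIRPα KO library, with 74.8, 74.8 and 50.4 CPM in WT against 84.5, 76.7 and 85.5 CPM in SIRPα KO (log2 fold change 0.30, adjusted p = 0.272 from edgeR). Sdhaf2, which helps to attach FAD to Sdha, was the third factor with that order of the groups, at 43.5, 47.6 and 43.8 CPM in WT against 52.7, 48.2 and 48.2 CPM in SIRPα KO (log2 fold change 0.15). Of the 37 factors, 16 had SIRPα KO below WT without overlap (21.2% of all genes tested) and 3 had it above (21.6% of all genes).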
